A study of Mus musculus with 12 samples.

Results

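The constitutive proteasome subunit genes are the genes of the deposited gene table named Psma, Psmb, Psmc or Psmd plus a number, without pseudogenes and without Psmb8, Psmb9 and Psmb10, which encode subunits of the immunoproteasome. The rule used names alone and found 36 of the 55487 genes in the table, 16 of the core and 20 of the cap. Of these, 34 had a mean above 1 FPKM in at least 1 group and were tested, within a fit over 16471 genes. The remaining pair was Psma8, a testis-restricted alpha subunit listed at 0 to 0.55 FPKM, and Psmb11, the thymus-restricted catalytic subunit, listed at 0 in all 12 libraries.

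The series compares retinas of WT (C57BL/6J), shPax6 and JNK3 KO (Jnk3-/-) mice, each after an intravitreal injection of 1 μL of PBS or of 40 mM NMDA, which is 40 nmol of this glutamate receptor agonist. The shPax6 retinas were those of WT mice that had also received 2 μL of an AAV2.7m8 vector, in which the U6 promoter drives a hairpin RNA against Pax6 beside GFP. WT mice and mice given this vector were 2 months old, and the age of the JNK3 KO mice is not given in the sources used here. Each of the 6 groups has 2 libraries of poly(A) RNA, and each library pools over 3 retinas. The values are FPKM, in which read fragments are scaled to the length of the transcript and to all mapped fragments of the library. No library from retinas with the shScramble control vector is among the 12, so infection and Pax6 knockdown cannot be told apart. The JNK3 KO is a deletion in the germline, not in a cell type.

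The 26S proteasome degrades proteins that carry ubiquitin chains. Its core is a barrel of alpha rings, encoded by Psma genes, around beta rings, encoded by Psmb genes, and the subunits of Psmb5, Psmb6 and Psmb7 hold the chymotrypsin-like, caspase-like and trypsin-like sites. The cap binds the substrate: the ATPases encoded by Psmc genes unfold it, the base subunits of Psmd1, Psmd2 and Psmd4 receive ubiquitin and shuttle factors, and the lid, whose subunit of Psmd14 cuts off the ubiquitin chain, is built from further Psmd genes. Psmd5, Psmd9 and Psmd10 encode chaperones that assemble the base and leave it. In many cells the subunit genes are transcribed together, and NRF1, encoded by Nfe2l1, raises them through antioxidant response elements when proteasome activity falls.

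Across the series, the WT NMDA libraries stood apart: their FPKM over all genes summed to 805627 and 820180, against 541210 to 576922 in the other 10 libraries, and their differences from WT PBS depended on transcript length, as described beside the results. Over all 16471 tested genes the median log2 difference between WT NMDA and WT PBS was -0.09, and rescaling each library to a common sum (TPM) moved it to -0.66, so the values of the genes studied are also given relative to that median. Markers of other cell types moved as well, with 10 of 11 genes of retinal ganglion cells (RGCs) lower and 6 of 8 tested neutrophil genes higher in WT NMDA than in WT PBS. The RGC markers summed to 600 to 620 FPKM in WT PBS and 331 to 347 in WT NMDA, and the 9 neutrophil markers to 213 to 236 and 1950 to 1990. The neutrophil sums went from 5.2 to 6.55 in shPax6 PBS to 67.0 to 74.3 in shPax6 NMDA, and from 156 to 170 in JNK3 KO PBS down to 13.3 to 14.4 in JNK3 KO NMDA, with Ly6g and Ngp at 0 in both NMDA groups. Of the 11 RGC genes, 8 were lower after NMDA in shPax6 and 7 in JNK3 KO retinas. The RGC sums were 190 to 192 FPKM in shPax6 PBS and 71.1 to 76.9 in shPax6 NMDA. They were 564 to 609 in JNK3 KO PBS and 167 in both libraries of JNK3 KO NMDA. The 10 rod markers, of the photoreceptors that fill this tissue, summed to 27900 to 28100 in WT PBS and 31300 to 31400 in WT NMDA, to 36900 to 40000 in shPax6 PBS and 22700 to 23200 in shPax6 NMDA, and to 29100 to 29900 in JNK3 KO PBS and 24400 to 24600 in JNK3 KO NMDA. The part of these cells in the results was not tested. In bulk retina, fewer cells of a type and less RNA per cell cannot be told apart. Pax6 was lower in shPax6 PBS than in WT PBS (log2 difference -0.90, SE 0.07, adjusted p = 6.04e-05 in limma), and Mapk10, which encodes JNK3, was lower in JNK3 KO PBS than in WT PBS (-2.34, SE 0.36, adjusted p = 0.0215) but still listed at 8.75 FPKM or above there. After NMDA neither gene marked its genotype: Pax6, which fell by 1.68 on the log2 scale in WT, was listed at 55.4 and 53.8 FPKM in WT NMDA and 67.5 and 58.7 in shPax6 NMDA, and Mapk10 at 8.98 and 6.00 FPKM in WT NMDA and 6.65 and 13.8 in JNK3 KO NMDA.

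Under PBS, the 34 genes were listed in WT retinas at mean levels between 8.62 FPKM (Psmd10) and 156 FPKM (Psmb6). Psmb6, Psma3 (145 FPKM), Psmb4 (128 FPKM), Psmb5 (112 FPKM) and Psma7 (111 FPKM) led the order, all of the core, and the highest cap gene was Psmd8, a lid gene, with 103 FPKM. The chaperone genes Psmd5 (21.8 FPKM), Psmd9 (17.7 FPKM) and Psmd10 stood at the bottom. FPKM are per length, so these levels may be set against each other, and neighbours such as Psmb5 and Psma7 lay within the spread of their 2 libraries. They are gene sums that include forms not annotated as coding. For Psma3 a retained-intron form held 57.5 FPKM and a nonsense-mediated decay form 50.6, against 23.2 for the main coding transcript. For Psmb4 a retained-intron form held 40.2 FPKM.

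In WT retinas, NMDA was followed by a rise of nearly the whole set. Of the 34 genes, 31 rose, 2 fell and 1 did not pass the threshold (limma on log2(FPKM + 0.1), Benjamini-Hochberg adjusted p below 0.05 over all genes), whereas 26% of all tested genes rose and 33.8% fell. The median log2 difference of the 34 genes was 1.05, which is 1.14 above that of all genes, and 19 of them had a log2 difference above 1. The rise covered 14 of 14 core and 17 of 20 cap genes. Under other scalings fewer genes passed. On TPM 22 rose and 3 fell, where 13.6% of all genes rose and 50.2% fell. After quantile normalization 24 rose and 2 fell, against 26.8% and 30.6% of all genes. After each library's trend on length was removed 23 rose and 2 fell, Psma1 and Psmc6, against 23% and 22.7% of all genes. Psma1, an alpha ring gene that rose on the deposited values (0.53), thus turned to -0.27 with the length correction (adjusted p = 0.0146 in limma). The 20 genes that rose under all 4 scalings were Psma2, Psma5, Psma6, Psma7, Psmb1, Psmb3, Psmb4, Psmb5, Psmb6, Psmb7, Psmc1 to Psmc5, Psmd2, Psmd3, Psmd4, Psmd8 and Psmd13. All 4 scalings act on the gene sum and do not separate its transcripts. For Psmd2 the full-length transcript had means of 72.9 FPKM in WT PBS and 74.5 in WT NMDA, as described below.

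The genes of the catalytic subunits were among the highest. In GRCm38 they lie apart: Psmb5 (ENSMUSG00000022193, chromosome 14, 54614119 to 54618022), Psmb6 (ENSMUSG00000018286, chromosome 11, 70525367 to 70527858) and Psmb7 (ENSMUSG00000026750, chromosome 2, 38588036 to 38644087). Psmb5, of the chymotrypsin-like site, was listed at 109 and 115 FPKM in WT PBS and 279 and 278 FPKM in WT NMDA, at 106 and 106 in shPax6 PBS and 113 and 123 in shPax6 NMDA, and at 140.4 and 125 in JNK3 KO PBS and 109 and 107 in JNK3 KO NMDA. Psmb6, of the caspase-like site, was listed at 149 and 162 FPKM in WT PBS and 471 and 467 FPKM in WT NMDA, at 190.4 and 163 in shPax6 PBS and 196 and 216 in shPax6 NMDA, and at 191 and 185 in JNK3 KO PBS and 168 and 168 in JNK3 KO NMDA. Psmb7, of the trypsin-like site, was listed at 90.2 and 102 FPKM in WT PBS and 245 and 243 FPKM in WT NMDA, at 87.3 and 95.6 in shPax6 PBS and 107 and 105 in shPax6 NMDA, and at 111 and 105 in JNK3 KO PBS and 101.4 and 96.8 in JNK3 KO NMDA. For each of them both WT NMDA libraries stood above all other libraries. The log2 difference in WT was 1.31 for Psmb5 (SE 0.07, adjusted p = 3.75e-07 with limma), 1.59 for Psmb6 (SE 0.08, adjusted p = 3.40e-07) and 1.35 for Psmb7 (SE 0.07, adjusted p = 4.48e-07), and all 3 still passed after the length correction.

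**Figure D1:**
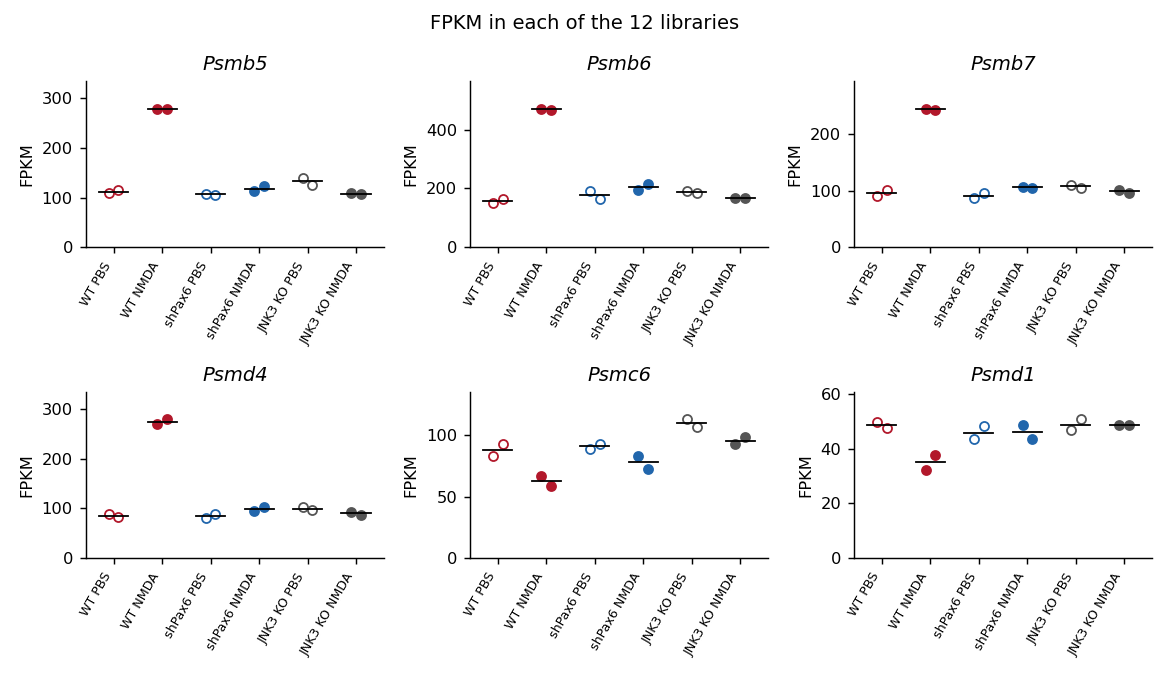
FPKM (vertical axes, from 0) of 6 proteasome subunit genes in each of the 12 libraries, 2 per group, with open circles for PBS, filled circles for NMDA and a bar at the mean of each group. Psmb5, Psmb6, Psmb7 and Psmd4 were highest in both WT NMDA libraries, whereas Psmc6 and Psmd1 were lowest there.

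The 7 tested genes of the beta ring all rose, by 1.23 (Psmb2) to 1.67 (Psmb3) on the log2 scale with a median of 1.46. Psmb3, a structural beta subunit, was listed at 100.2 and 109 FPKM in WT PBS and 332 and 334 FPKM in WT NMDA, at 100.5 and 117 in shPax6 PBS and 124 and 131 in shPax6 NMDA, and at 125 and 125 in JNK3 KO PBS and 111 and 102 in JNK3 KO NMDA, with a log2 difference of 1.67 in WT (SE 0.08, adjusted p = 2.84e-07 by limma). Psmb4, also structural, was listed at 133 and 123 FPKM in WT PBS and 366 and 339 FPKM in WT NMDA, at 151 and 140.1 in shPax6 PBS and 167 and 156 in shPax6 NMDA, and at 161 and 152 in JNK3 KO PBS and 132 and 120.4 in JNK3 KO NMDA. Psmb1 and Psmb4 rose by 1.47 and 1.46. The 7 tested genes of the alpha ring, which gates the entry to the barrel, rose by 0.53 (Psma1, which passed as lower after the length correction) to 1.55 (Psma7) with a median of 1.08, and Psma2, Psma3, Psma4, Psma5 and Psma6 lay between. Psma7 was listed at 112 and 109 FPKM in WT PBS and 321 and 327 FPKM in WT NMDA, at 102 and 99.5 in shPax6 PBS and 116 and 99.7 in shPax6 NMDA, and at 131 and 135 in JNK3 KO PBS and 116 and 116 in JNK3 KO NMDA. Psma6 was listed at 83.0 and 82.7 FPKM in WT PBS and 195 and 189 FPKM in WT NMDA, at 63.7 and 64.5 in shPax6 PBS and 96.7 and 88.0 in shPax6 NMDA, and at 99.3 and 97.9 in JNK3 KO PBS and 92.4 and 100.4 in JNK3 KO NMDA. For both of these alpha genes the WT NMDA pair did not overlap any other group.

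In the cap, 5 of the 6 ATPase genes rose by 1.00 (Psmc2) to 1.31 (Psmc1 and Psmc4), with Psmc3 at 1.09 and Psmc5 at 1.18, and Psmc6 fell. Among the base genes Psmd2 and Psmd4 rose and Psmd1 fell. Smaller rises were seen in the lid, where Psmd3, Psmd6, Psmd7, Psmd8, Psmd12, Psmd13 and Psmd14 rose, with a median of 0.67 over the 8 lid genes, only Psmd13 (1.01) above 1, and Psmd11 did not pass. The chaperone genes Psmd5 (0.52), Psmd9 (0.64) and Psmd10 (0.95) rose, with a median of 0.64.

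Psmd4, the gene of a ubiquitin receptor, (ENSMUSG00000005625, chromosome 3, 95032694 to 95042614) had the largest rise of all 34. It was listed at 87.5 and 81.7 FPKM in WT PBS and 269 and 279 FPKM in WT NMDA, at 81.1 and 88.1 in shPax6 PBS and 94.7 and 103 in shPax6 NMDA, and at 102 and 96.7 in JNK3 KO PBS and 92.9 and 86.3 in JNK3 KO NMDA. The WT NMDA values were more than 2 times those of any other library, a log2 difference of 1.69 (SE 0.07, adjusted p = 1.21e-07 in limma). At the other end stood the ATPase gene Psmc6 (ENSMUSG00000021832, chromosome 14, 45329788 to 45349705) and Psmd1 (ENSMUSG00000026229, chromosome 1, 86064387 to 86139151), the scaffold gene of the base. Psmc6 was listed at 83.3 and 92.9 FPKM in WT PBS and 66.5 and 59.0 FPKM in WT NMDA, at 89.2 and 93.1 in shPax6 PBS and 83.0 and 72.9 in shPax6 NMDA, and at 113 and 107 in JNK3 KO PBS and 93.0 and 98.7 in JNK3 KO NMDA. The WT NMDA libraries held the lowest values, and the log2 difference was -0.49 (SE 0.09, adjusted p = 0.00108 with limma). Psmd1 was listed at 49.7 and 47.7 FPKM in WT PBS and 32.2 and 37.6 FPKM in WT NMDA, at 43.6 and 48.2 in shPax6 PBS and 48.7 and 43.4 in shPax6 NMDA, and at 47.0 and 50.7 in JNK3 KO PBS and 48.7 and 48.8 in JNK3 KO NMDA. Here too WT NMDA was the lowest pair, at -0.48 (SE 0.10, adjusted p = 0.00178), but after the length correction Psmd1 no longer passed, whereas Psmc6 was lower under all 4 scalings. The lid gene Psmd11 was listed at 26.8 and 32.0 FPKM in WT PBS and 27.7 and 32.5 FPKM in WT NMDA, at 43.4 and 30.5 in shPax6 PBS and 38.8 and 37.2 in shPax6 NMDA, and at 30.2 and 31.2 in JNK3 KO PBS and 36.4 and 32.9 in JNK3 KO NMDA. Its WT groups overlapped, with a log2 difference of 0.03 and a 95% interval of -0.33 to 0.40, and on TPM it passed as lower (-0.54, adjusted p = 0.013 by limma).

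**Figure D2:**
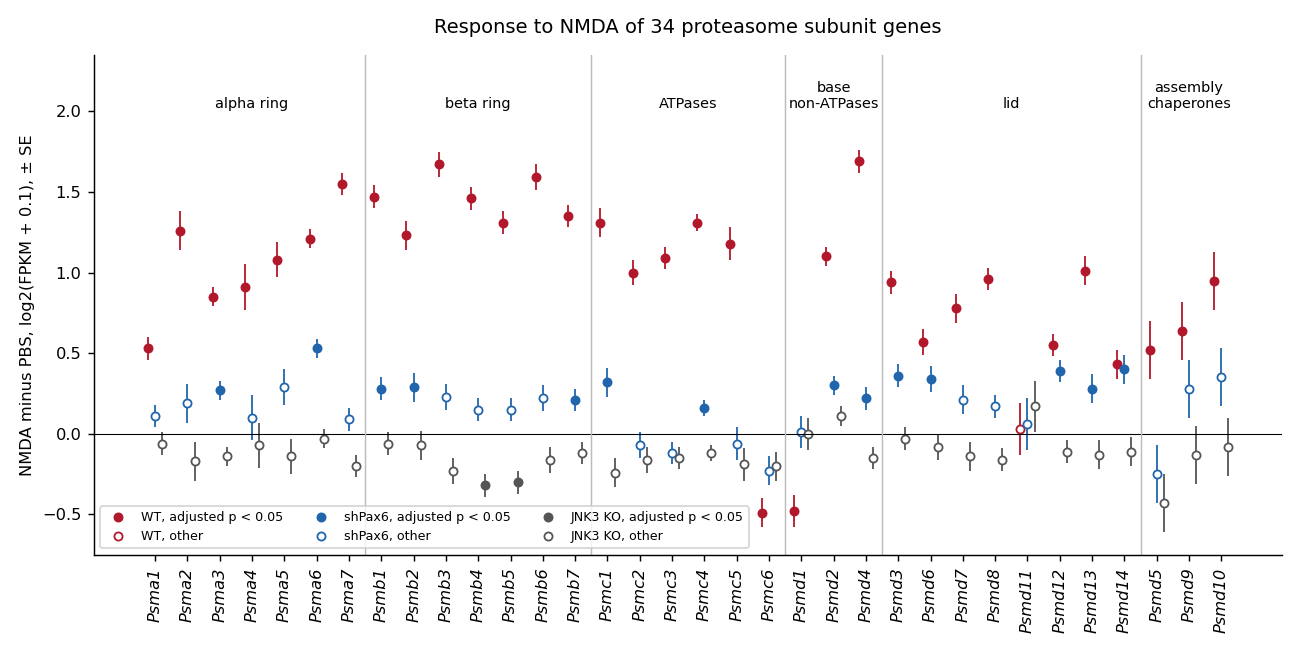
Difference between NMDA and PBS on log2(FPKM + 0.1) (vertical axis, ± SE, 2 libraries per group) of the 34 tested genes, grouped by role, in WT (red), shPax6 (blue) and JNK3 KO (grey) retinas, with filled circles for an adjusted p below 0.05. The WT values lie mostly between 0.4 and 1.7, above those of shPax6 and JNK3 KO retinas, except for Psmc6, Psmd1 and Psmd11, and under other scalings 22 to 24 WT genes passed as higher.

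The rise of the core was larger than that of the cap on the deposited values. The median log2 difference in WT was 1.29 for the 14 core genes and 0.95 for the 20 cap genes, a gap of 0.34 before rounding. Core genes have shorter transcripts: their spliced length, weighted by the FPKM of each transcript, had a median of 1040 bases (771 to 2066), against 1480 bases (1193 to 3038) in the cap. Among all tested genes, the median log2 difference in WT was 1.03 for the 2947 genes under 1000 bases, 0.74 for those of 1000 to 1500 bases, 0.33 for 1500 to 2000, -0.14 for 2000 to 3000 and -0.93 above 3000. Within these length classes, 30 of the 34 genes lay above the median of all genes of their class. In the class of 1000 to 1500 bases, the 7 core genes had a median of 1.08 and the 11 cap genes one of 1.01, where all 2232 genes of that class had 0.74 and 53.5% of them rose. When each library's trend on length was removed, the core median was 0.38 and the cap median 0.41, so the gap was not larger than the spread between libraries (0.04), and the median of all 34 genes was 0.40, 0.41 above that of all genes.

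**Figure D3:**
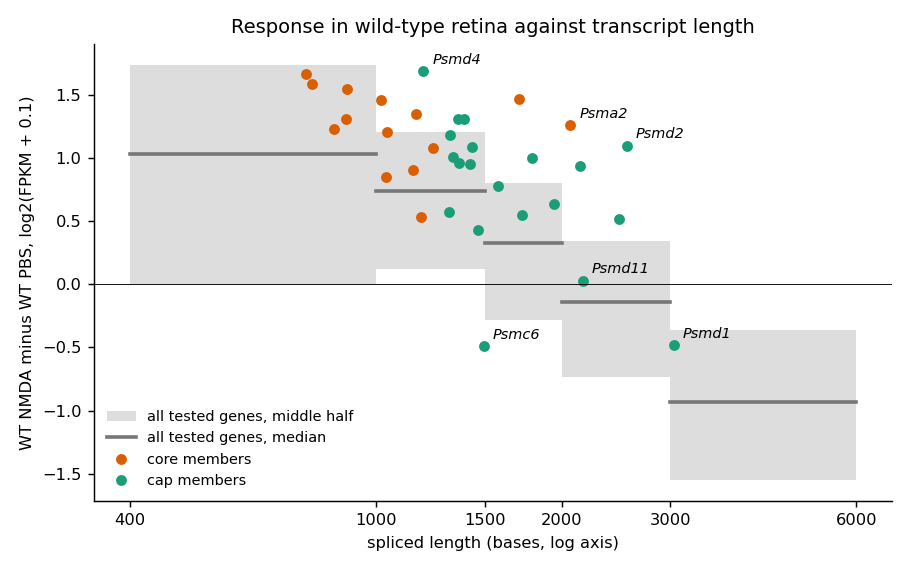
Difference between WT NMDA and WT PBS on log2(FPKM + 0.1) (vertical axis) against spliced transcript length (horizontal log axis) for 14 core (orange) and 20 cap (green) genes, with the median (line) and range between the quartiles (grey band) of all tested genes in 5 length classes. Most of the genes lie above the line of their class, and Psmc6 and a few others lie below it. The outer classes hold all shorter and longer genes.

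Summed over each part, core FPKM divided by cap FPKM was 1.09 and 1.10 in the WT PBS libraries and 1.42 and 1.4 in the WT NMDA libraries. It was 1.15 and 1.11 in shPax6 PBS, 1.2 and 1.2 in shPax6 NMDA, 1.11 and 1.10 in JNK3 KO PBS and 1.08 and 1.07 in JNK3 KO NMDA. The WT NMDA pair thus stood above all other libraries. After the length correction the order changed: the ratio was 1.11 and 1.07 in WT NMDA, below the 1.17 and 1.17 of WT PBS. It was also below that of every other library (1.14 to 1.24). With both parts together, the 36 genes held 0.456% and 0.465% of all FPKM in WT PBS and 0.686% and 0.682% in WT NMDA. That share does not depend on the total of a library, and it lay between 0.439% and 0.521% in the other 8.

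**Figure D4:**
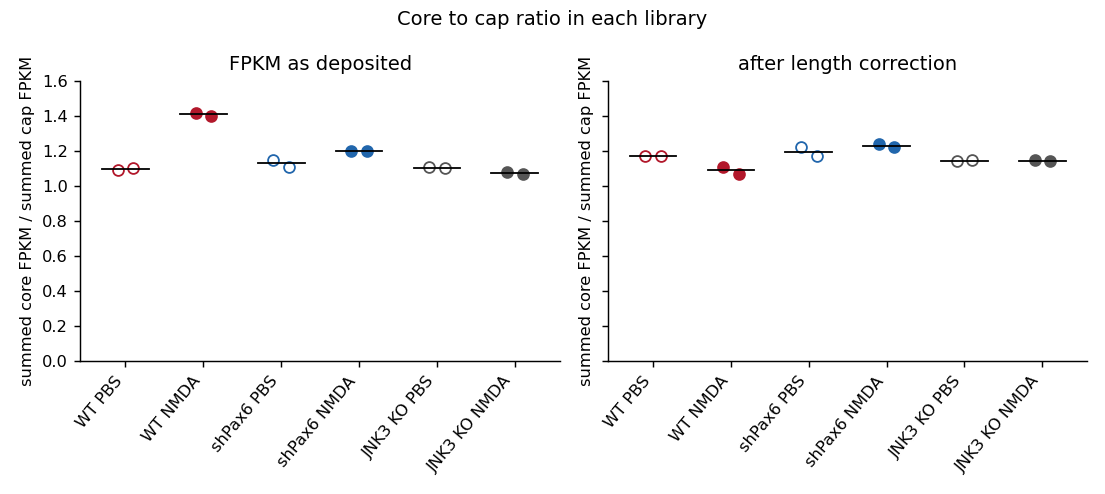
Summed FPKM of core genes divided by that of cap genes (vertical axes, from 0) in each of the 12 libraries, on the deposited values (left) and after each library's trend on transcript length was removed (right), with a bar at each group mean. On the left the WT NMDA libraries (1.42 and 1.4) stand above all others, and on the right (1.11 and 1.07) they are below all others.

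The transcript table showed which RNA species carried these values. The main coding transcript of each gene, the one with the highest mean FPKM over the 12 libraries, held a median of 87.7% of the FPKM of the 34 genes in WT PBS and 89.5% in WT NMDA. A Psmc2 transcript that was not in the annotation used here is left out of these shares. Fitted on main transcripts in place of gene sums, an analysis chosen after the values were seen, 28 of the 34 genes rose in WT and Psmd1 fell, where 21.9% of 15697 genes rose. Psma3, Psmc2, Psmd2, Psmd5 and Psmd11 did not pass in that fit, and Psmc6 passed as higher.

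For Psmd2, whose product is the other large scaffold of the base, the gene sum was listed at 77.0 and 73.98 FPKM in WT PBS and 152 and 172 FPKM in WT NMDA, at 65.9 and 66.0 in shPax6 PBS and 79.4 and 83.4 in shPax6 NMDA, and at 82.9 and 82.2 in JNK3 KO PBS and 90.4 and 88.2 in JNK3 KO NMDA. Its full-length transcript Psmd2-201 (2961 bases) stayed at 73.8 and 72.0 FPKM in WT PBS and 74.8 and 74.2 FPKM in WT NMDA. The added FPKM lay in Psmd2-207, a coding transcript of 659 bases whose 5′ end is annotated as incomplete, listed at 75.4 and 93.8 FPKM in WT NMDA and at 0 in the other 10 libraries. Psmd4 had a similar component: Psmd4-206 (695 bases, also incomplete at its 5′ end) was listed at 93.5 and 102 FPKM in WT NMDA and at 0 in the other 10. Unlike in Psmd2, the longer Psmd4-202 (1332 bases) rose too, from 49.98 and 47.3 to 118 and 125 FPKM. Both short transcripts lie toward the 3′ end of the longer one: Psmd2-207 (chromosome 16, 20659404 to 20663412, plus strand of GRCm38) shares 657 of its bases with positions 1605 to 2959 of Psmd2-201, and Psmd4-206 (chromosome 3, 95032704 to 95035267, minus strand) shares 686 with positions 421 to 1322 of Psmd4-202.

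Each of these short transcripts has 1 splice junction that no other annotated transcript of its gene has, and its bases are given because reads over it would tell the short form from the long one. The 15 bases before the junction are in lower case and the 15 bases after it in capitals, from GENCODE M21 on GRCm38.
Psmd2-207: agctcctccacatctGCAGTGGATGTGGTG
Psmd4-206: aattttggggaagagGCCCTTCGAGTCTCT
The first joins coding exons across 3064 bases and skips 5 exons (594 bases) of Psmd2-201, and the second skips 1 exon (216 bases) of Psmd4-202. The files hold FPKM and no reads, so the reads over these junctions were not analysed here. Among all 142699 transcripts, 146 were at 0 in all 6 PBS libraries and above 5 FPKM in both WT NMDA libraries, and the same count was 38 for shPax6 and 4 for JNK3 KO retinas; Psmd2-207 and Psmd4-206 were the 2 of the proteasome genes in WT, and none was found in the other genotypes.

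**Figure D5:**
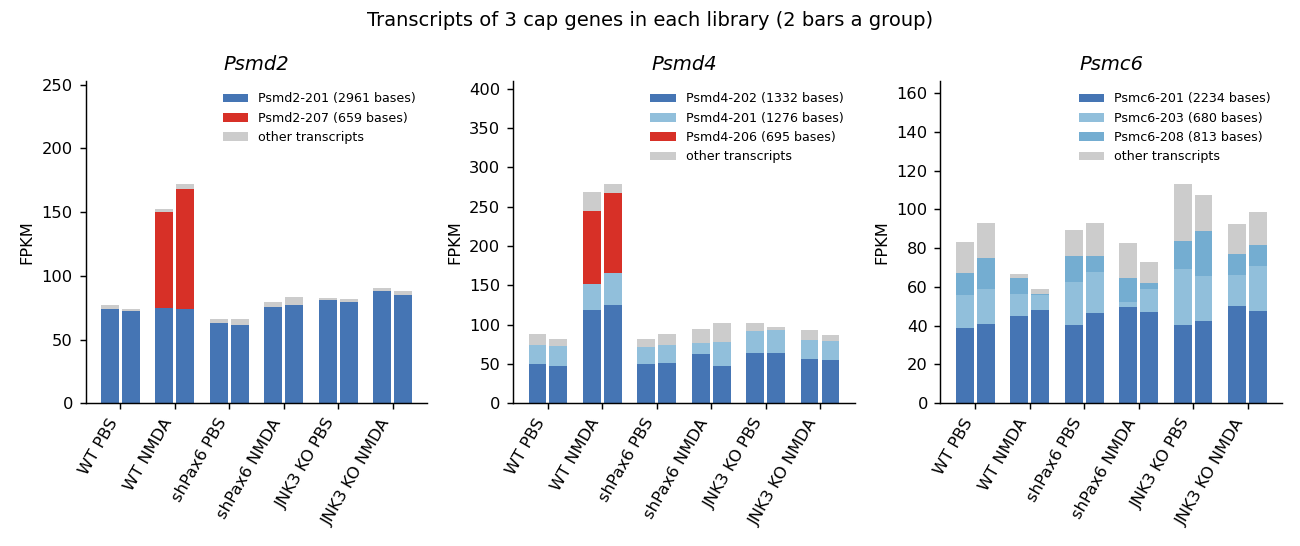
FPKM (vertical axes, from 0) of the transcripts of Psmd2, Psmd4 and Psmc6, stacked, in each of the 12 libraries with 2 bars per group. The red parts, Psmd2-207 and Psmd4-206, appear in the 2 WT NMDA libraries alone, whereas the mean of Psmd2-201 lies between 62.3 (shPax6 PBS) and 86.7 FPKM (JNK3 KO NMDA). Psmc6-201 has a mean of 40.0 FPKM in WT PBS and 46.6 in WT NMDA, and the shorter Psmc6 forms are lower in WT NMDA.

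Psmc6 showed the reverse. Its full-length transcript Psmc6-201 (2234 bases) was listed at 39.0 and 41.0 FPKM in WT PBS and 45.0 and 48.3 FPKM in WT NMDA, a log2 difference of 0.22 (adjusted p = 0.0475 in limma), so the direction was the opposite of the gene sum's. The shorter forms were lower, such as the retained-intron transcript Psmc6-203 with means of 17.4 FPKM in WT PBS and 9.34 FPKM in WT NMDA. Other genes drew part of their rise from short forms as well: the means of the retained-intron transcripts Psmc1-202 (381 bases) and Psmc4-205 (854 bases) went from 9.60 to 73.0 FPKM and from 7.61 to 49.6 FPKM. In Psmc1, Psmc1-201 rose beside it, from a mean of 76.7 to 142 FPKM. The deposited values are estimates by RSEM, which divides reads between overlapping transcripts, so forms of a gene are less certain than its sum.

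In shPax6 retinas, NMDA raised 14 of the 34 genes and lowered none, against 19.1% and 11% of all genes. At an unadjusted p below 0.05 there were 20 higher and 1 lower, and the share of all genes there was not counted. In the same comparison 9 of 10 rod markers and 8 of 11 RGC markers were lower and 6 of 8 tested neutrophil genes were higher, and their part in the values was not tested. The differences were small, with a median of 0.22, which is 0.12 above that of all genes, and none reached 1. The median was 0.22 in the core and 0.21 in the cap. The 14 genes were Psma3, Psma6, Psmb1, Psmb2, Psmb7, Psmc1, Psmc4, Psmd2, Psmd3, Psmd4, Psmd6, Psmd12, Psmd13 and Psmd14. With the spread of the 4 shPax6 libraries alone, which differ more from each other, the count was 0 of 34, where 4.1% of all genes rose and 1.83% fell. After the length correction 8 rose (23.5%) and 2 fell, where 19.2% of all genes rose and 10.3% fell, and the median of the 34 genes equalled that of all genes (0.11). After quantile normalization 5 rose (14.7%) and 2 fell, against 13.1% and 16.6%, and on TPM 9 rose (26.5%) and 1 fell, against 16.8% and 12.4%. Under the first 2 the share that rose was thus near that of all genes. Psmc6 was the gene that passed as lower each time, joined by Psmc3 in the first 2.

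Of the 8 lid genes 5 rose, with a median of 0.31, and of the 3 base genes Psmd2 and Psmd4 rose, with a median of 0.22. Psmd14, the deubiquitinase gene of the lid, was listed at 50.2 and 51.5 FPKM in WT PBS and 69.1 and 68.2 FPKM in WT NMDA, at 37.6 and 40.8 in shPax6 PBS and 56.6 and 47.0 in shPax6 NMDA, and at 65.3 and 63.1 in JNK3 KO PBS and 58.6 and 60.6 in JNK3 KO NMDA. The shPax6 libraries did not overlap between treatments, with a log2 difference of 0.40 (SE 0.09, adjusted p = 0.00809 with limma), near the 0.43 of WT. Psmd12 was listed at 41.5 and 43.3 FPKM in WT PBS and 59.3 and 64.7 FPKM in WT NMDA, at 37.7 and 36.5 in shPax6 PBS and 47.3 and 49.96 in shPax6 NMDA, and at 53.5 and 52.5 in JNK3 KO PBS and 49.7 and 48.7 in JNK3 KO NMDA. It rose by 0.39 (SE 0.07, adjusted p = 0.00205), also without overlap. The alpha gene Psma6, whose values are given above, had the largest difference in shPax6 retinas (0.53, SE 0.06, adjusted p = 0.000275), but it started from lower PBS values there. The smallest values were those of Psmd5 (-0.25, SE 0.18, adjusted p = 0.351), Psmc6 (-0.23, SE 0.09, adjusted p = 0.0834) and Psmc3 (-0.12, SE 0.07, adjusted p = 0.195), which did not pass. Psmd5 was listed at 22.7 and 21.02 FPKM in WT PBS and 30.3 and 32.4 FPKM in WT NMDA, at 20.6 and 24.98 in shPax6 PBS and 23.8 and 15.4 in shPax6 NMDA, and at 28.0 and 26.9 in JNK3 KO PBS and 19.0 and 21.7 in JNK3 KO NMDA. The 2 shPax6 NMDA libraries of Psmd5 lay far apart, and without shPax6 NMDA replicate 2 its difference was 0.07, and without shPax6 NMDA replicate 1 it was -0.56. The ATPase gene Psmc3 was listed at 97.5 and 95.9 FPKM in WT PBS and 208 and 205 FPKM in WT NMDA, at 117 and 102 in shPax6 PBS and 98.2 and 103 in shPax6 NMDA, and at 126 and 122 in JNK3 KO PBS and 109.9 and 113 in JNK3 KO NMDA. Of the catalytic genes, Psmb7 rose by 0.21 (SE 0.07, adjusted p = 0.0459), and Psmb5 (0.15, SE 0.07) and Psmb6 (0.22, SE 0.08) did not pass. Psmb7 did not pass without shPax6 PBS replicate 1 (0.15) or without either NMDA library (0.20 and 0.23), and Psmd14 did not without shPax6 PBS replicate 1 (0.34).

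In JNK3 KO retinas no gene of the set rose and 2 fell, Psmb4 and Psmb5, against 4.33% and 6.1% of all genes. At an unadjusted p below 0.05, limma's test gave 0 higher and 10 lower, and the share of all genes there was not counted. The median was -0.14, which is 0.12 below that of all genes, with -0.14 in the core and -0.13 in the cap, and 32 of the 34 values were negative. All 2232 genes of 1000 to 1500 bases, the class of 18 of the 34, also had a median of -0.14. Within the length classes 13 of the 34 genes lay above the median of their class. After the length correction the median of the 34 was -0.04, near the -0.02 of all genes. In the same comparison 8 of 10 rod markers, 7 of 11 RGC markers and 4 of 8 neutrophil genes were lower, and their part was not tested. Psmb4 and Psmb5 differed by -0.32 and -0.30 (SE 0.07 each, adjusted p = 0.026 and 0.0218 by limma), and for both genes each NMDA library was below each PBS library. Neither passed after quantile normalization or the length correction. Psmb4 did not pass without any 1 of the 4 libraries (-0.38 to -0.25), and Psmb5 passed only without JNK3 KO PBS replicate 2. The lowest value was that of Psmd5 (-0.43, SE 0.18, adjusted p = 0.189), and the highest were those of Psmd11 (0.17, SE 0.16), Psmd2 (0.11, SE 0.06) and Psmd1 (0.00, SE 0.10). The 95% interval of the catalytic gene Psmb6, which did not pass, was -0.34 to 0.01, and that of Psmb7 was -0.28 to 0.04.

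The responses were then compared with each other. Both comparisons use the same 4 WT libraries, so they are not independent, and the WT NMDA libraries enter both. Against shPax6 retinas, the response of WT retinas was larger for 26 genes and smaller for 1, where 18.3% of all genes were larger and 31.4% smaller. The median difference was 0.79, which is 1.08 above that of all genes, with 1.10 in the core and 0.67 in the cap. Against JNK3 KO retinas, it was larger for 31 genes and smaller for 1, against 23.5% and 27.9% of all genes. The median there was 1.15 (1.45 in the core, 0.98 in the cap), which is 1.19 above that of all genes. On TPM the medians were 0.27 and 0.56, but they lay 1.07 and 1.18 above those of all genes, which moved as well. Against shPax6 retinas 17 genes were then larger and 5 smaller, where 9.2% and 47.2% of all genes were. Against JNK3 KO retinas 22 were larger and 3 smaller, where 12.8% and 42.3% of all genes were. After quantile normalization the medians were 0.42 and 0.56, which is 0.43 and 0.56 above those of all genes. Against shPax6 retinas 18 were larger and 2 smaller (19.6% and 22.9% of all genes), and against JNK3 KO retinas 24 and 2 (22% and 26%). After the length correction the medians were 0.23 and 0.45, which is 0.36 and 0.39 above those of all genes. Against shPax6 retinas 16 genes then had a larger and 4 a smaller response in WT, where 14.3% of all genes were larger and 20.7% smaller. Against JNK3 KO retinas 20 were larger and 2 smaller, against 18.3% and 15.6% of all genes. Some genes with a larger response on the deposited values passed as smaller there, Psma3 against shPax6 (0.58 to -0.24) and Psma1 against JNK3 KO (0.59 to -0.31).

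Psmd4 and Psma7 had the largest differences from shPax6 retinas, 1.47 (SE 0.10, adjusted p = 6.74e-06 in limma) and 1.45 (SE 0.10, adjusted p = 6.26e-06). From JNK3 KO retinas it was Psmb3 and Psmd4, with 1.90 (SE 0.11, adjusted p = 2.08e-06) and 1.84 (SE 0.10, adjusted p = 1.17e-06). These are gene sums, and part of that of Psmd4 in WT NMDA was the short transcript Psmd4-206. Psmd1 was the gene with a smaller response in both, by -0.49 (SE 0.13, adjusted p = 0.0145) and -0.48 (SE 0.13, adjusted p = 0.0146). Psmc6 came next at -0.26 (SE 0.13, adjusted p = 0.115) and -0.29 (SE 0.13, adjusted p = 0.0838), which did not pass. Psmd1 in turn did not pass without WT PBS replicate 1 (-0.46 and -0.45) or, against JNK3 KO, without JNK3 KO PBS replicate 1 (-0.42). After the length correction Psmd1 passed in neither comparison, and Psmc6 passed as smaller in both (-0.71 and -0.90), as it did on TPM and after quantile normalization. The genes without a difference past the threshold from shPax6 retinas were Psmc6, Psmd6, Psmd9, Psmd10, Psmd11, Psmd12 and Psmd14. Among these, Psmd14 (0.04, 95% interval -0.24 to 0.31) and Psmd12 (0.16, -0.05 to 0.37) had been raised in both genotypes on the deposited values. In WT, however, Psmd14 did not pass on TPM, after quantile normalization or after the length correction, and Psmd12 did not pass on TPM. After the length correction the response of Psmd14 was smaller in WT (-0.44).

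Without NMDA, shPax6 retinas differed little from WT. Psma6, Psmc1, Psmd7 and Psmd14 (11.8%) were lower and none was higher, against 11.2% and 5.36% of all genes lower and higher. At an unadjusted p below 0.05, 9 were lower and 3 higher, and the share of all genes there was not counted. The median was -0.05. The ATPase gene Psmc1 was listed at 86.2 and 87.4 FPKM in WT PBS and 209 and 221 FPKM in WT NMDA, at 64.9 and 67.2 in shPax6 PBS and 74.1 and 91.8 in shPax6 NMDA, and at 103 and 97.7 in JNK3 KO PBS and 87.2 and 82.9 in JNK3 KO NMDA, and its difference between shPax6 PBS and WT PBS was -0.39 (SE 0.09, adjusted p = 0.0183 with limma). Psmd14 differed by -0.37 (SE 0.09, adjusted p = 0.0186). Both shPax6 PBS libraries were below both WT PBS libraries for each of these genes, which were picked as the lowest differences. At the upper end stood Psmd11 (0.31, SE 0.16, adjusted p = 0.239) and Psmb4 (0.19, SE 0.07, adjusted p = 0.122), and for Psmd11 the value was 0.06 without shPax6 PBS replicate 1 and 0.56 without replicate 2. The count of genes passing was 1 without either WT PBS library or shPax6 PBS replicate 1, and 8, of which 4 higher, without shPax6 PBS replicate 2. The 7 RGC markers that were lower in shPax6 PBS (of 11) and the 10 rod markers that were higher (of 10) moved in the same comparison, and their part in these values was not tested.

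JNK3 KO retinas under PBS had a value above 0 for all 34 genes, with a median of 0.24 where that of all genes was 0.00. Only Psmc3 passed as higher (0.36, SE 0.07, adjusted p = 0.0389 by limma) and none as lower, against 1.1% and 0.407% of all genes. At an unadjusted p below 0.05, 23 genes were higher and 0 lower, and the share of all genes there was not counted. All 2232 genes of 1000 to 1500 bases, the class of 18 of the 34, had a median of 0.13. Within the length classes 32 of the 34 genes lay above the median of their class. Psmc3 did not pass without any 1 of the 4 libraries (0.34 to 0.38). The other end was formed by Psmd1 (0.00, 95% interval -0.21 to 0.22) and the lid gene Psmd3 (0.04, -0.11 to 0.19), and Psmd10 followed Psmc3 with 0.35 (SE 0.18). Psmd3 was listed at 51.2 and 56.4 FPKM in WT PBS and 105 and 102 FPKM in WT NMDA, at 46.8 and 48.0 in shPax6 PBS and 59.7 and 62.1 in shPax6 NMDA, and at 57.6 and 53.0 in JNK3 KO PBS and 55.2 and 53.5 in JNK3 KO NMDA. Psmd10 was listed at 8.60 and 8.63 FPKM in WT PBS and 16.3 and 17.2 FPKM in WT NMDA, at 8.08 and 8.97 in shPax6 PBS and 13.6 and 8.67 in shPax6 NMDA, and at 11.5 and 10.5 in JNK3 KO PBS and 10.2 and 10.6 in JNK3 KO NMDA. The median was 0.18 on TPM, 0.14 after quantile normalization and 0.13 after the length correction, and no gene passed under these 3. These medians lay 0.23, 0.14 and 0.11 above those of all genes. Of the 10 rod markers, 7 were higher in the same comparison, and their part in it was not tested.

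The rest of the pathway was described by lists drawn up from general knowledge, with 47 genes tested. In WT retinas 26 of them rose and 14 fell with a median of 0.44, where 26% of all genes rose and 33.8% fell. In shPax6 retinas 13 rose and 4 fell, against 19.1% and 11% of all genes, and in JNK3 KO retinas 1 rose and 3 fell, against 4.33% and 6.1%. The immunoproteasome genes Psmb8, Psmb9 and Psmb10, whose products replace those of Psmb5, Psmb6 and Psmb7 when immune cells or interferon are at work, rose in WT by 1.06 (SE 0.12), 1.72 (SE 0.21) and 2.55 (SE 0.16). They also rose in shPax6 retinas, by 1.23, 1.84 and 0.69, and none passed in JNK3 KO retinas (-0.44, -0.15 and 0.09). Set against its constitutive partner, Psmb8 had 0.184 and 0.199 of the FPKM of Psmb5 in WT PBS and 0.170 and 0.151 in WT NMDA, but 0.395 and 0.30 in shPax6 NMDA against 0.156 and 0.169 in shPax6 PBS. The Psmb10 to Psmb7 ratio went from 0.317 and 0.25 in WT PBS to 0.619 and 0.683 in WT NMDA. In shPax6 retinas it was 0.333 and 0.265 after PBS and 0.338 and 0.505 after NMDA. The Psmb9 to Psmb6 ratio was 0.0396 and 0.0553 in WT PBS and 0.045 and 0.0589 in WT NMDA. In shPax6 retinas it went from 0.023 and 0.0287 to 0.0955 and 0.0669. In JNK3 KO NMDA the Psmb8, Psmb9 and Psmb10 ratios were 0.142 and 0.137, 0.0499 and 0.054, and 0.326 and 0.336. In JNK3 KO PBS they were 0.135 and 0.175, 0.052 and 0.0509, and 0.289 and 0.282. Markers of microglia and macrophages summed to 109 to 119 FPKM in WT PBS, 291 to 298 in WT NMDA, 189 to 208 in shPax6 PBS and 666 to 684 in shPax6 NMDA. In JNK3 KO retinas the sums were 117 to 122 after PBS and 89 to 96.6 after NMDA. None of the 11 was at 0 in any group. After NMDA 6 were higher and 4 lower in WT, 7 and 0 in shPax6, and 1 and 4 in JNK3 KO retinas. Much of the WT sum was Tyrobp, with means of 49.6 and 167 FPKM. The part of these markers in the ratios was not tested.

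Pomp, which encodes the maturation factor of the core, rose by 1.16 in WT (SE 0.08, adjusted p = 1.95e-06 in limma) and by 0.37 in shPax6 retinas (SE 0.08, adjusted p = 0.00688), and it was higher in JNK3 KO PBS than in WT PBS by 0.48 (SE 0.08, adjusted p = 0.0251). Of 6 core assembly genes, 5 rose in WT. The 11S activator genes Psme1 and Psme2 rose in WT by 1.12 and 1.72 (SE 0.13 and 0.10) and in shPax6 retinas by 0.55 and 0.79, whereas Psme3, of the nuclear 11S activator, and Psme4, of the PA200 activator, fell in WT by 0.34 and 1.09 on the log2 scale (SE 0.10 and 0.16). A pair of further cap genes moved in opposite directions in WT: Adrm1, of a ubiquitin receptor, rose by 1.42 (SE 0.17, adjusted p = 7.07e-05), and Usp14, of the deubiquitinase that docks on the base, fell by 1.56 (SE 0.08, adjusted p = 4.90e-07). Nfe2l1, the gene of NRF1, fell in WT by 0.65 (SE 0.08, adjusted p = 8.97e-05) and in shPax6 retinas by 0.25 (SE 0.08, adjusted p = 0.0418), and in JNK3 KO retinas its difference was -0.16 (SE 0.08, adjusted p = 0.263).

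Because these genes moved together in WT, their promoters were searched in RefSeq sequences of GRCm38.p6 that run from 250 bases before to 50 bases after a gene's start, which were matched by symbol for 29 of the 36 genes. The antioxidant response element, searched on both strands as TGACNNNGC, where N is any base, was found in 5 of the 29 (17.2%), and in 14% of all 27025 symbols with a promoter. The CCAAT box, searched as CCAAT on both strands, was found in 12 of the 29 (41.4%) and in 41.1% of all symbols. Neither share stood far from that of all genes. The element is shown for the genes that have it, each window running 5′ to 3′ on the gene's strand with the match in capitals.
Psmb5 promoter, chr14:54618024-54618052, minus strand: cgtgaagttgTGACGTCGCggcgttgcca
Psmb6 promoter, chr11:70525338-70525366, plus strand: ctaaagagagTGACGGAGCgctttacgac
Psmc6 promoter, chr14:45329587-45329615, plus strand: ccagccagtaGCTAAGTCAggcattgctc
Psmd12 promoter, chr11:107479278-107479299, plus strand: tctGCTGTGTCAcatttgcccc
Psmd9 promoter, chr5:123228149-123228177, plus strand: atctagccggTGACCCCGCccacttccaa
The element in Psmb5, Psmb6 and Psmd9 lies on the gene's own strand 9 to 47 bases before the start, and in Psmc6 and Psmd12 it lies on the opposite strand 227 and 247 bases before it. The 5 genes with a match were not alike in WT retinas after NMDA: Psmb6 and Psmb5 rose by 1.59 and 1.31, Psmd9 and Psmd12 by 0.64 and 0.55, and Psmc6 fell. These letters are a description of the window and not of binding.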

How the data were processed

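RNA-seq of 12 mouse retina libraries was used, and the ChIP-seq of the same study was not used here. Per the labels' processing notes and the study's methods, the authors prepared libraries with the TruSeq mRNA kit and oligo-dT priming, sequenced them as read pairs, and used STAR 2.7.1a, RSEM 1.3.3, edgeR 3.36.0 and R 4.1.0 with GRCm38.p6. The authors deposited FPKM per gene and per transcript. No counts were given to this work, so the depth behind a value is unknown and count models, which the study's tools include, could not be fitted.

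Genes were kept when any of the 6 groups averaged over 1 FPKM (16471 of 55487). The values log2(FPKM + 0.1) of all 12 libraries were fitted with a mean per group in limma 3.58.1 (R 4.3.3, empirical Bayes with trend, 6 residual degrees of freedom), and p-values were two-sided and adjusted by Benjamini-Hochberg over all tested genes in each of 7 comparisons, with a threshold of 0.05. Fold changes on this scale understate the change of low genes. Nothing in the sources ties replicates to separate animals beyond the pooled retinas, so p-values measure the spread between these libraries. Lengths and positions came from GENCODE M21, matched for 99.53% of genes, and figures were drawn with matplotlib 3.10.9.

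The genes and lists were chosen with earlier results of these data known. Every gene of the set is named with its call, and values per library are given for Psmb5, Psmb6, Psmb7 and for the genes with the largest and smallest differences in each comparison. Groups of such genes tend not to overlap because of this choice. The share of all genes without overlap was not counted. Psmd2 and the transcripts were described after their values were seen. Alternatives were a pseudocount of 1, no filter, TPM, quantile normalization, removal of each library's lowess trend on length (span 0.3), the spread of the compared groups alone, a replicate block, another call rule and leaving out each library. A fit on main transcripts was added after seeing the data. Replicate numbers were checked as pairs over 15 pairs of groups, and their deviations correlated at -0.1 to 0.09, so the numbers do not pair the libraries. Replicates had identical values in 2.77 to 3.64% of the tested genes and were counted as separate libraries.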

Additional observations from a re-analysis of the deposited data

Results flagged for a closer look

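The response to NMDA differed between WT and shPax6 retinas for 27 of the 34 genes and between WT and JNK3 KO retinas for 32 (interaction contrasts in limma, adjusted p below 0.05 over all genes). Of all genes, 18.3% had a larger and 31.4% a smaller response in WT than in shPax6 retinas, and 23.5% and 27.9% than in JNK3 KO retinas, whereas 26 and 31 of the 34 genes were larger and 1 smaller in each. Both contrasts use the same WT libraries. Psmd4 had a larger response in WT than in shPax6 retinas by 1.47 on the log2 scale and than in JNK3 KO retinas by 1.84. Part of its WT NMDA value was the short transcript Psmd4-206, which was listed in no other group. Psma7 differed from shPax6 retinas by 1.45 and Psmb3 from JNK3 KO retinas by 1.90. Psmd1 went the other way, by -0.49 and -0.48. The WT NMDA libraries also differ from all others in their summed FPKM and in their trend on transcript length. The part of these in the responses was not tested beyond the other scalings, for which the shares of all genes are given above. On TPM 17 and 22 genes had a larger and 5 and 3 a smaller response in WT. After quantile normalization 18 and 24 were larger and 2 and 2 smaller. After the length correction 16 and 20 genes had a larger and 4 and 2 a smaller response in WT. With 2 libraries per group, no library could be tested as an outlier within its group.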

How the results depend on the processing

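The direction of the WT rise and its count stayed within 1.5 times of 33 genes passing under all alternatives except the rule of an unadjusted p below 0.05 with an absolute log2 difference above 1, which gave 19, and without 1 library it was 31 to 32. That rule gave 0 in shPax6, 0 in JNK3 KO, 0 and 0 in the PBS comparisons, and 13 and 20 for the responses against shPax6 and JNK3 KO. The share of all genes under it was not counted. In shPax6 retinas (14, all higher) the count was 7 after quantile normalization (5 higher, 2 lower) and 7, all higher, on main transcripts. It was 0 with the spread of the compared groups alone and 8 with replicate block and length correction (6 higher, 2 lower). Of all genes, 4.1% rose and 1.83% fell with that spread. The shares were 13.8% and 8.91% on main transcripts and 18.5% and 9.76% with block and length correction. In JNK3 KO retinas (2, both lower) the count was 0 after quantile normalization or the length correction, where 5.29% and 5.53% of all genes were lower. It was 1, lower, with the spread alone, with replicate block and length correction or on main transcripts. Of all genes, 5.68%, 4.92% and 4.24% were lower under these. For shPax6 PBS (4, all lower) the count was 2, both lower, with the spread alone, where 3.65% of all genes were lower. For JNK3 KO PBS (1, higher) it was 2, both higher, with a pseudocount of 1, where 1.24% of all genes were higher. It was 0 there with no filter, TPM, quantile normalization, length correction, spread alone, replicate block and length correction, or main transcripts. The WT response against JNK3 KO was larger for 19 genes and smaller for 1 with replicate block and length correction, against 17.9% and 15.3% of all genes. The replicate block alone gave 33, 13, 2, 5, 1, 27 and 32 genes, of either direction, for WT, shPax6, JNK3 KO, both PBS comparisons and both responses. Of all genes, 25.7%, 18.6%, 3.7%, 4.82%, 0.722%, 17.9% and 23.4% were higher there. Lower were 33.5%, 10.6%, 5.55%, 10.4%, 0.206%, 30.7% and 27.3%. A library left alone in its group is assumed to vary like the other groups.

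Core minus cap was 0.34 in WT, and 0.22 after quantile normalization, -0.03 with the length correction, -0.03 with replicate block and length correction, 0.39 on main transcripts and 0.33 to 0.39 without 1 library. In shPax6 it was -0.12 to 0.08 without 1 library. In shPax6 PBS it was 0.09 on main transcripts and -0.04 to 0.10 without 1 library, and in JNK3 KO PBS 0.07 on main transcripts. For the response against shPax6 it was 0.28 (quantile), 0.05 (length), 0.05 (block and length), 0.37 without chaperone genes and 0.30 to 0.59 without 1 library. Against JNK3 KO it was 0.31 (quantile), -0.01 (length), -0.01 (block and length) and 0.37 to 0.52 without 1 library. The core to cap FPKM ratio in WT PBS, WT NMDA, shPax6 PBS, shPax6 NMDA, JNK3 KO PBS and JNK3 KO NMDA was 1.17, 1.09, 1.19, 1.23, 1.14 and 1.15 after the length correction, 1.59, 2.20, 1.80, 1.77, 1.59 and 1.64 from medians over genes, and 1.14, 1.46, 1.18, 1.25, 1.15 and 1.12 without chaperone genes.

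On main transcripts the direction reversed for Psmc6 in WT (0.22), shPax6 (0.15) and the response against shPax6 (0.07), Psmc3 in shPax6 (0.20) and Psmd11 in shPax6 PBS (-0.47), and Psmd2 passed as smaller in the response against shPax6 (0.80 to -0.26). With the length correction, genes passing as higher passed as lower: Psma1 in WT (0.53 to -0.27) and the response against JNK3 KO (0.59 to -0.31), and Psma3 in the response against shPax6 (0.58 to -0.24). Psma1 in WT was -0.04 on TPM and -0.03 after quantile normalization, which did not pass. Psmd11 in WT was -0.54 on TPM, -0.10 (quantile), -0.01 (length), -0.01 (block and length), -0.05 (main transcripts) and -0.09 to 0.16 without 1 library. Psmd5 in shPax6 was -0.56 to 0.07 without 1 library. Psmd3 in JNK3 KO PBS was -0.02 on TPM, -0.05 (quantile) and -0.03 to 0.11 without 1 library. The cause was not tested. The depth behind the FPKM is unknown, so no floor can be given for values at 0.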
